A study of Mus musculus with 16 samples.

Results

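Among 38108 splenic T cells with a paired receptor, 521 cells, in 123 clonotypes, carried a TRBV1-TRBJ2-4 beta chain together with a TRAJ30 alpha chain. These cells are called the core here. They were chosen by segment labels in the contig tables: exactly 1 beta chain (TRB), with TRBV1 and TRBJ2-4, and 1 or 2 alpha chains (TRA), at least 1 of them with TRAJ30. The segment combination was picked with receptor tables of these same libraries already known, with its shares by group and the likeness of its sequences, so none of the tests below is independent support for them. The comparison sets were 2136 TRBV1 cells without TRAJ30, of which 237 also used TRBJ2-4, and 1214 TRAJ30 cells without TRBV1. A further 74 cells paired TRBV1 and TRAJ30 with another TRBJ.

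The cells were sorted as CD44high CD4+ T cells from the spleens of mice at day 18 after engraftment with Vk12653 multiple myeloma cells (a Vk*Myc tumour), and their receptors were read in 8 libraries. Every mouse had received an antibody that depletes NK1.1+ cells (50 µg, days -2 and 5), and then 20 µg of antibody on days 10, 13 and 16. The groups were KO with agonistic anti-4-1BB, WT with anti-4-1BB, KO with control IgG and WT with control IgG, with 1 library of each in experiment 1 and in experiment 2. KO mice of experiment 1 were Eomes fl/fl CD4Cre, in which Cre is expressed in T cells under CD4 control. KO mice of experiment 2 were Eomes fl/fl ERT2CD4Cre with tamoxifen, which was also given to the WT mice of that experiment. WT mice were Eomes-IRES-GFP reporters. Experiment, type of knockout and tamoxifen cannot be told apart. The labels do not say whether a library held 1 mouse or a pool, so each p-value measures only the spread between libraries. The tables list TRA and TRB chains alone, so neither the CD4 label nor the Eomes deletion could be checked in them. Mouse ages are not given in the labels.

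A T cell receptor is built by joining V, D and J segments of the beta locus and V and J segments of the alpha locus, with bases lost and added at each joint. The joint codes for the third complementarity-determining region (CDR3), the loop that sits over the bound peptide. T cells of separate origin can arrive at the same CDR3 amino acids with different codons, whereas daughters of 1 cell share the nucleotides of both chains. 4-1BB (CD137) is a costimulatory receptor of activated T cells, and Eomes is a T-box transcription factor of effector and memory lymphocytes. RefSeq (GRCm38.p6) places Trbv1 at chr6:40891296-40891885, Trbj2-4 at chr6:41543362-41543410 and Traj30 at chr14:54189866-54189924, each annotated as a V or J segment.

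The 5 largest core clonotypes are printed first because they show how narrow the receptor was. The CDR3 nucleotides are given as deposited, 5′ to 3′, with beta codons 5 to 7 and alpha codon 3 in capitals. Core receptors differed most there, and less often at other bases, such as beta codon 8 (AGT in 109 and TCT in 4 of the 113 clonotypes of the pattern described next) and alpha codon 2. A clonotype groups the cells of 1 library by identical V and J labels and CDR3 nucleotides of the beta chain and of the alpha chain with most unique molecular identifiers (UMIs).
Clonotype 1 beta: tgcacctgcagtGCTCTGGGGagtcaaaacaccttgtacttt
Clonotype 1 alpha: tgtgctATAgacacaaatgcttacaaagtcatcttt
Clonotype 2 beta: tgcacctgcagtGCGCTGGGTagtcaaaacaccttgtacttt
Clonotype 2 alpha: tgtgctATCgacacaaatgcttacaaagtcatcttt
Clonotype 3 beta: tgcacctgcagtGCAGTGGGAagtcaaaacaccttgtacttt
Clonotype 3 alpha: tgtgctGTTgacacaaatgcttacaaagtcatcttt
Clonotype 4 beta: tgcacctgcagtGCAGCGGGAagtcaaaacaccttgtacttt
Clonotype 4 alpha: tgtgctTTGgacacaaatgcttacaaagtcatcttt
Clonotype 5 beta: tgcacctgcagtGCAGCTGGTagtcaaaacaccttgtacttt
Clonotype 5 alpha with TRAJ30: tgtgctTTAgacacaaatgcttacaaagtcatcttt
Clonotypes 1 to 3, all of experiment 2 and of KO given anti-4-1BB, held 68, 50 and 49 cells, which was 1.39%, 1.02% and 0.999% of the paired cells of that library. They ranked 2, 3 and 4 by size among all its clonotypes. Clonotype 4 held 23 cells of WT with anti-4-1BB in experiment 2, where it ranked 14. Clonotype 5 held 20 cells of the same library, where it ranked 16. Its alpha chain with most UMIs was TRAV7N-5 with TRAJ38, and the TRAJ30 chain was read as a second alpha in 4 of the 20 cells, the only ones that the rule counts. Clonotypes 1 and 2 code for the same beta CDR3 and the same alpha CDR3 amino acids through different codons.

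Nearly all core beta chains followed 1 sequence pattern. The CDR3 was 14 residues long in 517 of 521 cells and in 119 of 123 clonotypes. In 498 cells and 113 clonotypes (91.9%), the start was that of TRBV1 for 4 residues, positions 5 and 6 were free, position 7 was glycine, and the last 7 residues were those of TRBJ2-4. With anti-4-1BB in experiment 2, 48 of 50 KO and 24 of 25 WT clonotypes met this pattern. With IgG there, 14 of 15 and 9 of 10 did (KO, WT). In experiment 1 it was met by 5 of 5 and 9 of 9 with anti-4-1BB, but by 1 of 3 and 3 of 6 with IgG. All core betas together came to 37 amino acid versions and 91 nucleotide versions. Part of the invariant stretches is common to other receptors with these segments. The first 12 bases matched the most frequent base in at least 93.9% of the 1845 other TRBV1 clonotypes at each position. The last 15 bases did so in at least 91.2% of the 2870 TRBJ2-4 clonotypes without TRBV1, and the 6 bases before them in 44.6% to 85.6%. Glycine stood at position 7 in 115 of 119 core clonotypes of 14 residues, and in 43 of 81 TRBV1-TRBJ2-4 clonotypes of that length without TRAJ30. Serine stood at position 8 in 118 of the 119 core clonotypes and in 50 of the 81 without TRAJ30. Of the 193 TRBV1-TRBJ2-4 clonotypes without TRAJ30, 30 met the whole beta pattern themselves, 23 of them in KO and 4 in WT with anti-4-1BB of experiment 2. The pattern was noticed in these cells, so neither comparison was tested.

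Alanine was the usual residue at position 5, in 90 of 119 core clonotypes against 65 of 81 without TRAJ30. GCA, made of the most frequent TRBV1 bases at this position, was used by 54 of the 113 clonotypes that met the pattern, with GCG in 14, GCC in 11 and GCT in 8. Position 6 was more varied, with 13 residues and 27 codons. Its leading residues were alanine in 37, arginine in 27 and leucine in 16 of 119 clonotypes. The glycine of position 7 was written in all 4 of its codons: GGG in 49, GGT in 48, GGA in 11 and GGC in 5 clonotypes. All 123 core clonotypes were joined to TRBC2, the constant segment behind the TRBJ2 cluster. No TRBD label was given to 112 of them, 9 were labelled TRBD1 and 2 TRBD2.

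The most frequent beta CDR3, with alanine at positions 5 and 6, was read in 158 cells and 36 clonotypes of 5 libraries. It was written in 17 different nucleotide sequences, and it was paired with 15 alpha nucleotide sequences. The 8 nucleotide versions that occurred in more than 1 clonotype are shown because they show the variety of codons behind 1 protein sequence.
Version 1: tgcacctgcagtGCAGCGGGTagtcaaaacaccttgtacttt
Version 2: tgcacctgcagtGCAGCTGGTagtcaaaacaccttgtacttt
Version 3: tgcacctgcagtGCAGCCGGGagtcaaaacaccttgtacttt
Version 4: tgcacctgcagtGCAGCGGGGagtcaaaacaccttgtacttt
Version 5: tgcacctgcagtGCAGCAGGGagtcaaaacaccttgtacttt
Version 6: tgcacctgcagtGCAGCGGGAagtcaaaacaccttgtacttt
Version 7: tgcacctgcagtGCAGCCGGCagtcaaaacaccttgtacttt
Version 8: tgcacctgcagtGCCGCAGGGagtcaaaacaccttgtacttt
Version 1 was found in 7 clonotypes, with 18 cells in the KO and 16 in WT with anti-4-1BB of experiment 2. Version 2 was found in 5 clonotypes, with 14 cells in the KO anti-4-1BB, 4 in the WT anti-4-1BB and 1 in the KO IgG library of experiment 2. In all, 76 cells of the KO and 77 cells of WT with anti-4-1BB of experiment 2 had this beta CDR3, against 2 and 2 with IgG (KO, WT) in that experiment. Experiment 1 gave 1 such cell, with WT anti-4-1BB.

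The other leading beta versions differed in how they were spread over libraries. Alanine and arginine at positions 5 and 6 gave 38 cells in 15 clonotypes, 12 nucleotide versions and 6 libraries. Alanine and proline gave 20 cells in 14 clonotypes, 11 nucleotide versions and 7 libraries, the widest spread of all, and no clonotype of it exceeded 4 cells. Alanine and leucine gave 130 cells in 8 clonotypes and 7 nucleotide versions, of which 127 cells lay in the KO and 3 in WT with anti-4-1BB of experiment 2. Alanine and valine gave 66 cells in 6 clonotypes, with 50 cells in the KO and 14 in WT with anti-4-1BB of experiment 2, and 1 cell each in the KO anti-4-1BB and KO IgG libraries of experiment 1. Aspartate and arginine gave 20 cells in 7 clonotypes, 13 of them cells of the WT and 5 of KO with anti-4-1BB of experiment 2. The next 4 versions by clonotypes (glycine and arginine, glutamate and leucine, glycine and threonine, alanine and lysine) had 3, 12, 6 and 4 cells in 2 or 3 clonotypes each. The order by cells and the order by clonotypes thus differed.

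Core alpha chains also followed 1 pattern. In 506 of 521 cells and 114 of 123 clonotypes, the TRAJ30 chain had a CDR3 of 12 residues that differed at position 3 alone. Both patterns together were met by 486 cells and 107 clonotypes. The residue at position 3 was leucine in 206 cells (57 clonotypes), isoleucine in 162 cells (22 clonotypes), valine in 68 cells (7 clonotypes) and proline in 65 cells (23 clonotypes). The fifth alpha version by clonotypes, with leucine at position 3 and a changed residue after it, had 7 cells in 4 clonotypes. The 14 alpha amino acid versions were written in 33 nucleotide sequences. The 5 with most cells are shown because they include alphas that recurred with many different betas.
Leucine alpha: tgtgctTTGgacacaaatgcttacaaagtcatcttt
Isoleucine alpha 1: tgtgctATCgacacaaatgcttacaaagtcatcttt
Isoleucine alpha 2: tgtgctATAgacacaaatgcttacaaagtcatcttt
Valine alpha: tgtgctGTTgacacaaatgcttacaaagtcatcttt
Proline alpha: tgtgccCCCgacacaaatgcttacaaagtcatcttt
The leucine alpha was found in 171 cells and 42 clonotypes of 7 libraries, beside 38 different beta nucleotide sequences. The first isoleucine alpha was found in 66 cells and 12 clonotypes with 12 betas, the second in 92 cells and 6 clonotypes with 6, and the proline alpha in 33 cells and 8 clonotypes with 8. The valine alpha was found in 50 cells but only 2 clonotypes, 49 of the cells belonging to clonotype 3. The leucine alpha also occurred in 15 TRAJ30 cells that lacked TRBV1.

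The alpha V segment was nearly the same throughout, although the rule did not ask for one. TRAV13-1 was the label of 84 core clonotypes and 275 cells, TRAV13N-1 of 25 clonotypes and 220 cells, and TRAV13D-1 of 9 clonotypes and 21 cells. The other 5 clonotypes, 1 each, had TRAV13N-2, TRAV4N-4, TRAV6D-6, TRAV6N-7 and TRAV7D-2. The first 3 labels made up 95.9% of core clonotypes (118 of 123), against 8.54% of clonotypes with TRAJ30 and no TRBV1 (85 of 995). RefSeq lists Trav13-1, Trav13n-1 and Trav13d-1 as separate V segments on chromosome 14, from the repeated part of the alpha locus. Their CDR1 and CDR2 nucleotides were each the same in 3404 of 3406 contigs, so these stretches did not separate the 3 labels. The split of clonotypes between the labels follows the deposited tables, and whether it is right was not tested. The labels went with the residue at position 3. TTG, for leucine, was the third codon of 1723 of 2178 TRAV13-1 contigs in the whole series, and ATG, for methionine, that of 440 of 878 TRAV13N-1 contigs. In the core, 59 of 84 TRAV13-1 clonotypes had leucine and 19 proline at this position, while 15 of 25 TRAV13N-1 clonotypes had isoleucine and 5 valine.

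The same alpha pattern was not limited to TRBV1. It occurred in 190 of 1214 TRAJ30 cells without TRBV1, beside 20 TRBV labels, the most frequent of which held 26 of these cells. With one of the 3 TRAV13 labels it occurred in 44 of those cells, beside 17 TRBV labels. It also occurred in 7 of the 74 TRBV1-TRAJ30 cells with another TRBJ.

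Some alpha and beta versions went together. Of the 14 clonotypes with alanine and proline in the beta chain, 13 had leucine in the alpha chain, as did 12 of 15 with alanine and arginine. None of the 6 clonotypes with alanine and valine had leucine there: 3 had valine, 2 serine and 1 tryptophan. The alanine and leucine version was split, with 3 clonotypes each for isoleucine and leucine, but the isoleucine clonotypes held 125 of its 130 cells. No test was made of these counts, which were read off after the versions had been ranked.

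**Figure D1:**
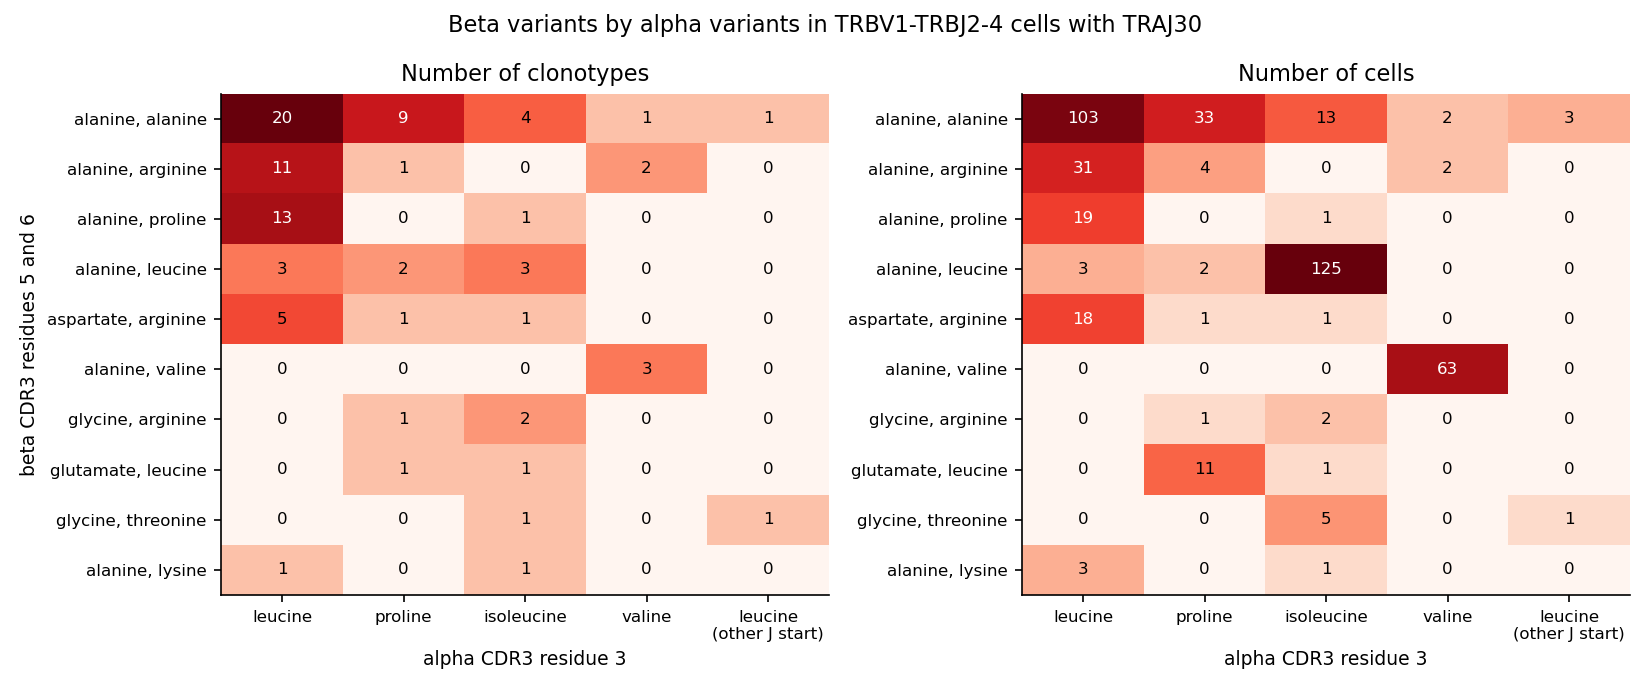
Number of core clonotypes (left) and cells (right) for the 10 beta CDR3 versions with most clonotypes (rows, by the residues at positions 5 and 6) and the 5 leading alpha versions (columns, by the residue at position 3). The clonotypes gather in the leucine column, with 20 for alanine and alanine, whereas the cells gather in 125 cells of alanine and leucine with isoleucine and 103 of alanine and alanine with leucine.

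The core was rare in 6 libraries and frequent in both anti-4-1BB libraries of experiment 2. There it made up 6.52% of paired cells in KO (320 of 4907, exact 95% Clopper-Pearson interval 5.85% to 7.25%) and 3.29% in WT (146 of 4439, 2.78% to 3.86%). The IgG libraries of experiment 2 had 0.334% in KO (20 of 5991, 0.204% to 0.515%) and 0.247% in WT (11 of 4459, 0.123% to 0.441%). In experiment 1 the share was 0.188% in KO anti-4-1BB (5 of 2656 cells), 0.101% in WT anti-4-1BB (9 of 8871), 0.110% in KO IgG (3 of 2728) and 0.173% in WT IgG (7 of 4057). All intervals cover counting error only, and they take cells as independent. Cells of 1 clonotype are not, and the 320 core cells of KO with anti-4-1BB lay in 50 clonotypes. The intervals are therefore too narrow, and they do not measure the spread between libraries. As a description, with 1 library per group, the anti-4-1BB intervals of experiment 2 lay above both IgG intervals. In experiment 1 the intervals of all 4 libraries overlapped.

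Together, both anti-4-1BB libraries of experiment 2 held 466 of the 521 core cells (89.4%) and 75 of the 123 core clonotypes. Set against IgG of the same genotype and experiment, anti-4-1BB differed by 2.31 ± 2.96 percentage points of paired cells (SD, n = 4 pairs of libraries, higher in 3 of 4). The exact permutation test over 16 arrangements, with both sides counted, gave p = 0.25 (adjusted 0.4 over 8 tests). With 4 pairs the smallest p is 2 of 16 arrangements, so no result could pass 0.05. The difference was 6.19 points in KO and 3.04 in WT of experiment 2, against 0.0783 points in KO and -0.0711 in WT of experiment 1. Means within experiments were 0.0036 points in experiment 1 and 4.61 in experiment 2. Without KO with anti-4-1BB or KO with IgG of experiment 2, which form 1 pair, the mean was 1.02 points.

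KO minus WT was 0.836 ± 1.60 points (SD, n = 4 pairs, higher in 3 of 4; exact permutation test, p = 0.25, adjusted 0.4). It was 3.23 points with anti-4-1BB and 0.0871 with IgG in experiment 2, against 0.0868 and -0.0626 in experiment 1. Without KO or WT with anti-4-1BB of experiment 2 the mean was 0.0371 points.

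Counting each clonotype once made the same libraries stand out, by less. The core made up 1.41% of clonotypes in KO (50 of 3539) and 0.889% in WT (25 of 2812) with anti-4-1BB in experiment 2, against 0.314% (15 of 4773) and 0.274% (10 of 3656) with IgG. In experiment 1 it made up 0.209% and 0.119% with anti-4-1BB (KO, WT), against 0.130% and 0.175% with IgG. The difference of anti-4-1BB from IgG was 0.434 ± 0.53 points (SD, n = 4 pairs, higher in 3 of 4; exact permutation test, p = 0.25, adjusted 0.4), with 0.0112 in experiment 1 and 0.857 in experiment 2. KO minus WT was 0.152 ± 0.254 points (3 of 4 higher; exact permutation p = 0.375, adjusted 0.406), with 0.0226 in experiment 1 and 0.282 in experiment 2. Without KO with anti-4-1BB of experiment 2 these means were 0.213 and 0.0287 points, as they were without its partner library in each comparison. The ratio of anti-4-1BB to IgG in experiment 2 was 19.5 in KO and 13.3 in WT for cells, and 4.50 in KO and 3.25 in WT for clonotypes.

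**Figure D2:**
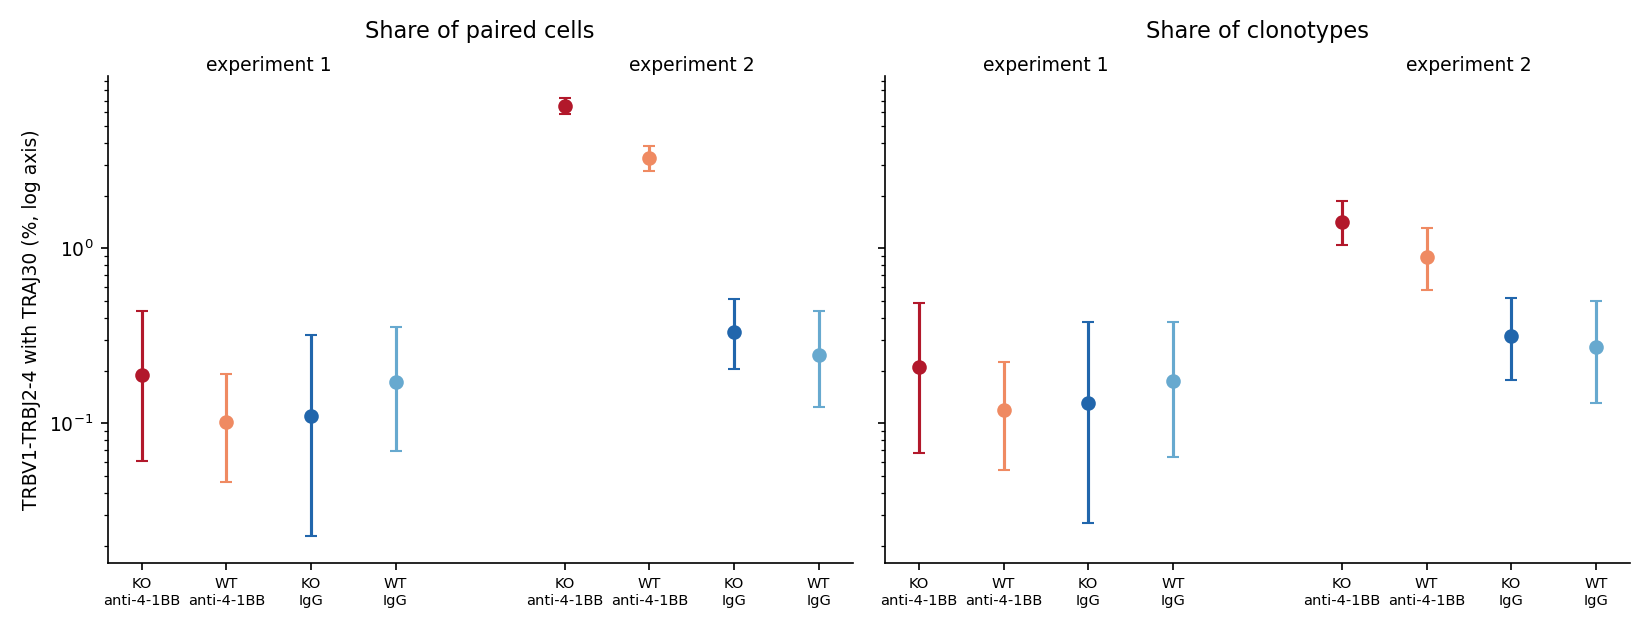
Core share of paired cells (left) and of clonotypes (right) in each library, in percent on a log axis. Bars are exact 95% Clopper-Pearson intervals for counting error, which take cells or clonotypes as independent. Both anti-4-1BB libraries of experiment 2 lie above the other 6, at 6.52% and 3.29% of cells and at 1.41% and 0.889% of clonotypes.

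The sets TRBV1 without TRAJ30 and TRAJ30 without TRBV1 had no such gap between these libraries and the rest. TRBV1 cells without TRAJ30 made up 5.28% and 4.57% of paired cells with anti-4-1BB (KO, WT), against 6.46% and 6.97% with IgG in experiment 2, and 4.03% and 5.44% with anti-4-1BB, against 5.61% and 5.74% with IgG in experiment 1. TRAJ30 cells without TRBV1 made up 3.65% and 3.09% with anti-4-1BB, against 2.85% and 4.40% with IgG in experiment 2, and 2.71% to 3.13% in experiment 1. The closest set, TRBV1-TRBJ2-4 cells without TRAJ30, did stand higher in these libraries. With anti-4-1BB in experiment 2 it had 54 of 4907 paired cells in KO and 46 of 4439 in WT. With IgG it had 23 of 5991 and 31 of 4459. In experiment 1 it had 11 of 2656 and 44 of 8871 with anti-4-1BB (KO, WT), against 11 of 2728 and 17 of 4057 with IgG. Part of this closest set carried core betas. With anti-4-1BB in experiment 2, 23 of the 54 KO and 20 of the 46 WT cells met the beta pattern, against 0 and 0 with IgG. The beta nucleotides of 21 and 20 of these cells (KO, WT) were those of a core cell of the same library. The core held 54.2% of TRBV1 cells in KO and 40.9% in WT with anti-4-1BB in experiment 2, and 1.78% to 4.72% of them in the other 6 libraries.

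The rule's own combination was tied to 1 beta J segment. Over all libraries, 123 of 315 TRBV1-TRBJ2-4 clonotypes (39.0%) carried TRAJ30, whereas with the other 11 TRBJ segments the share ran from 1.61% (TRBJ2-1, 3 of 186) to 5.56% (TRBJ2-7, 19 of 342). Pooled over libraries, TRAJ30 was the most frequent alpha J of TRBV1 clonotypes, at 9.30% (183 of 1967), against 3.31% of clonotypes without TRBV1. TRAJ31 and TRAJ37 followed, at 7.73% and 5.69% of TRBV1 clonotypes, against 6.57% and 4.86% of the others. The order rested on the anti-4-1BB libraries of experiment 2, where TRAJ30 had 88 of 465 TRBV1 clonotypes (18.9%) and TRAJ31 had 41 (8.82%). In the other 6 libraries TRAJ30 had 95 of 1502 (6.32%), below TRAJ31 with 111 (7.39%) and TRAJ37 with 96 (6.39%). These shares chose the receptors and were not tested.

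In the fit across all 462 TRBV with TRAJ pairs, TRBV1 with TRAJ30 was not called. Its clonotypes, with any TRBJ and by the main alpha chain, numbered 60 in KO and 28 in WT with anti-4-1BB in experiment 2 (1.70% and 0.996%), against 29 and 22 with IgG (0.608% and 0.602%). In experiment 1 they numbered 8 and 20 with anti-4-1BB (0.334% and 0.264%), against 6 and 10 with IgG (0.26% and 0.292%). Over both experiments the log2 difference of anti-4-1BB over IgG was 0.76 ± 0.52 (SE; edgeR adjusted p = 0.981; -0.091 without KO with anti-4-1BB of experiment 2), in a fit that called 0.0% of pairs (26 at an unadjusted p under 0.05; DESeq2 also called 0; 4 with the replicate block, the pair not among them). Fitted per experiment, with both genotypes as replicates, it was 1.17 ± 0.34 in experiment 2 (edgeR adjusted p = 0.246, 0.216% of pairs called) and 0.03 ± 0.52 in experiment 1 (edgeR adjusted p = 0.979, 1.08% of pairs called). The difference between experiments was 1.14 ± 0.64 (edgeR adjusted p = 0.806, 0.0% of pairs called, 32 at an unadjusted p under 0.05, 0 by DESeq2). Without KO with anti-4-1BB of experiment 2, the pair's difference was 0.72 in experiment 2 (edgeR adjusted p = 0.850), and the difference between experiments was 0.69 (edgeR adjusted p = 0.867). This model was chosen after the shares had been seen. In experiment 2 the pair stood 20 of 462 by size of the difference and 4 of 462 by p. Counting cells in place of clonotypes gave 3.09 in experiment 2 (edgeR adjusted p = 0.0911). KO over WT gave 0.47 ± 0.52 (edgeR adjusted p = 0.998, 0.0% of pairs called, 14 at an unadjusted p under 0.05, 0 by DESeq2), and -0.33 without KO with anti-4-1BB of experiment 2.

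**Figure D3:**
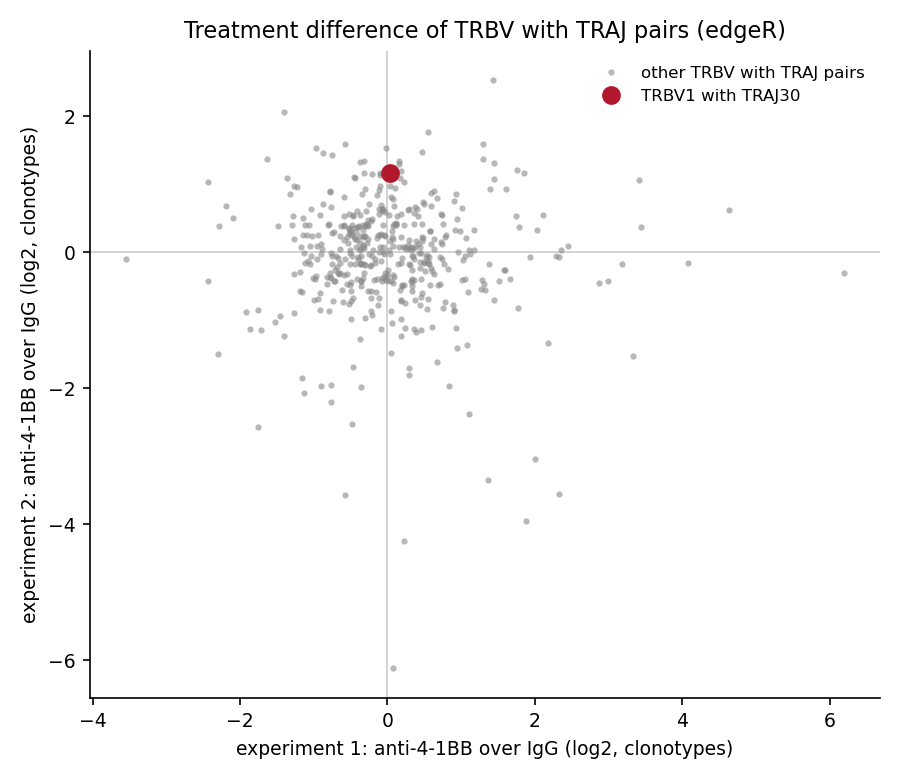
Difference of anti-4-1BB over IgG in clonotype counts (log2, edgeR) for 462 TRBV with TRAJ pairs, in experiment 1 (horizontal) and experiment 2 (vertical). TRBV1 with TRAJ30 lies at 0.03 and 1.17, inside the cloud of other pairs.

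None of the member segments was called by itself. For treatment the log2 differences were -0.18 ± 0.23 for TRBV1 (edgeR adjusted p = 0.957), 0.23 ± 0.07 for TRBJ2-4 (edgeR adjusted p = 0.296) and 0.19 ± 0.16 for TRAJ30 (edgeR adjusted p = 0.957), in a fit that called 0.654% of 153 segments. In experiment 2 alone TRAJ30 had 0.42 ± 0.16 and TRAV13-1 had 0.58 ± 0.20 (edgeR adjusted p = 0.217 for both, 1.31% of segments called). TRAJ30 made up 5.45% and 4.55% of clonotypes with anti-4-1BB (KO, WT), against 3.44% and 4.13% with IgG in that experiment. TRAV13-1 made up 6.22% and 4.87%, against 3.46% and 4.05%. TRAV13-1 passed with TMM factors (0.70, edgeR adjusted p = 0.0395). TRAV13N-1 had 0.31 and passed when cells were counted (1.45, edgeR adjusted p = 0.0307), with 198 of the 220 TRAV13N-1 core cells lying in KO with anti-4-1BB of experiment 2. For KO over WT the differences were 0.07 for TRBV1, 0.02 for TRBJ2-4 and 0.08 for TRAJ30 (edgeR adjusted p = 0.993 for each, 0.654% of segments called). Of the 6 segments of the TRBJ2 cluster, and of the 7 tested of 8 TRAJ segments next to TRAJ30, 0 were called in either direction for treatment, with median log2 differences of -0.02 and 0.07 against -0.03 over all segments.

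The pairs whose share of clonotypes ran most alike over the 8 libraries were TRBV26 with TRAJ37 (Pearson r = 0.935), TRBV13-1 with TRAJ26 (0.881) and TRBV12-2+TRBV13-2 with TRAJ48 (0.877). They are the highest among the 462 pairs, over libraries that share depth and experiment, and they are given as a description. TRBV26 with TRAJ37 had 28 and 11 clonotypes with anti-4-1BB (KO, WT), against 22 and 16 with IgG in experiment 2.

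Core clonotypes were large in the libraries where the core was frequent. With anti-4-1BB in experiment 2, 29 of 50 KO and 17 of 25 WT core clonotypes had 2 or more cells, and 6 and 8 had 10 or more. Sizes count all cells of a clonotype, and 1 of these 8 was clonotype 5, with 4 core cells among its 20. In the other 6 libraries, 5 of 48 core clonotypes had 2 or more cells, and the largest had 4. The mean number of core cells per core clonotype was 6.40 in KO and 5.84 in WT with anti-4-1BB in experiment 2, against 1.33 and 1.10 with IgG. The 3 largest core clonotypes held 52.2% of core cells in KO and 37.7% in WT with anti-4-1BB. Core clonotypes were 3 of the 10 largest clonotypes of the KO library and 0 of the 10 largest of the WT library.

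**Figure D4:**
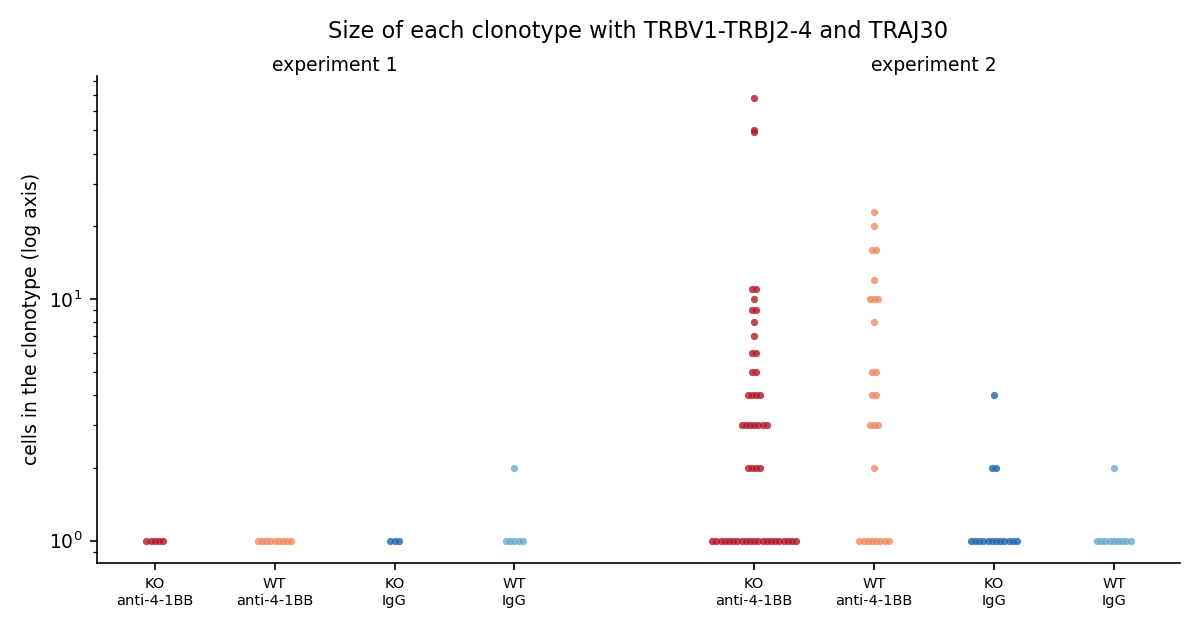
Number of cells (log axis) in each of the 123 core clonotypes, 1 point per clonotype, by library. In both anti-4-1BB libraries of experiment 2 the sizes run to 68 and 23 cells, and in the other 6 libraries no clonotype exceeds 4 cells.

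Expanded cells, whose clonotype had at least 2 cells, were compared with both partner sets inside each library. Clonotype 5 lay in 2 sets: 4 of its 20 cells were in the core and the rest in TRBV1 without TRAJ30. It thus counted as expanded in both of these sets of WT with anti-4-1BB in experiment 2. In the core, expanded cells made up 93.4% in KO and 94.5% in WT with anti-4-1BB in experiment 2, against 40.0% and 18.2% with IgG. Among TRBV1 cells without TRAJ30 they made up 13.5% and 46.3% with anti-4-1BB, against 26.9% and 22.8% with IgG. Among TRAJ30 cells without TRBV1 they made up 30.7% and 28.5% with anti-4-1BB, against 22.2% and 37.8% with IgG. Among TRBV1-TRBJ2-4 cells without TRAJ30, the set closest to the core, they made up 13.0% and 71.7% with anti-4-1BB. With IgG they made up 8.70% and 35.5% of that set (KO, WT). Expansion in this closest set was not tested, and its WT anti-4-1BB value includes cells of clonotype 5. In experiment 1 the core libraries held 3 to 9 cells, and 2 of 7 cells with WT IgG were expanded and none elsewhere.

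Over the 7 libraries with at least 5 clonotypes in both sets, the core minus TRBV1 without TRAJ30 was 14.2 ± 37.7 points (SD, n = 7, higher in 4 of 7; exact permutation test, p = 0.406, adjusted 0.406). It was -12.3 points in experiment 1 (3 libraries) and 34.2 in experiment 2 (4 libraries). Against TRAJ30 without TRBV1 it was 14.01 ± 36.9 points (4 of 7 higher; exact permutation p = 0.391, adjusted 0.406), with -9.64 and 31.7 in the experiments. Core cells were 16.8% of all expanded cells in KO and 6.68% in WT with anti-4-1BB in experiment 2, and at most 0.462% in the other 6 libraries. With the core left out, the expanded share of the remaining cells was 32.3% in KO and 44.9% in WT, where it had been 36.3% and 46.5% with it.

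**Figure D5:**
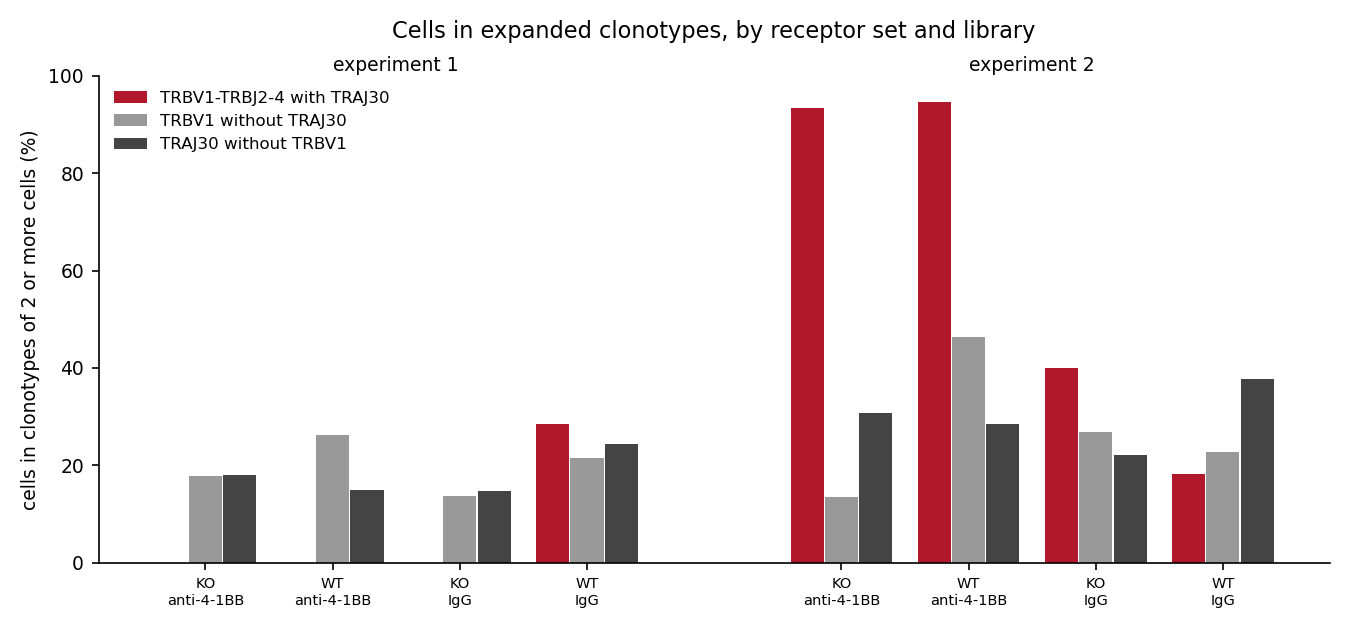
Expanded cells, in percent of each set, by library, for the core and its 2 comparison sets. In both anti-4-1BB libraries of experiment 2 the core bars reach 93.4% and 94.5%, and the other 2 sets stay between 13.5% and 46.3%. TRBV1-TRBJ2-4 cells without TRAJ30, not drawn as a set, had 13.0% in KO and 71.7% in WT there.

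The beta CDR3 of core clonotypes had a mean length of 13.99 ± 0.08 residues over 7 libraries, against 14.36 ± 0.18 for TRBV1-TRBJ2-4 clonotypes without TRAJ30 (SD). The within-library difference was -0.36 ± 0.22 residues (SD, lower in 7 of 7; exact permutation test, p = 0.0156, the smallest possible, adjusted 0.0625), so it did not pass after adjustment over 8 tests. Clonotype 5 counted in both sets of WT with anti-4-1BB in experiment 2. In KO with anti-4-1BB of that experiment, 23 of the 50 clonotypes without TRAJ30 met the core beta pattern. Of these 23, 21 had the beta nucleotides of a core cell of that library, so the sets compared there shared betas. A fixed length belongs to the pattern noticed in these cells, so the test of length is not independent support for it. Over all clonotypes the SD of the length was 0.238 residues in the core and 1.27 without TRAJ30. The KO IgG library of experiment 1, with 3 core clonotypes, had too few to enter, and its means ran the other way, at 14.7 residues in the core against 14.1 without TRAJ30.

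Core betas recurred between libraries. On average, 74.4% ± 24.9 of core clonotypes had a beta CDR3 amino acid sequence that also occurred in another library, against 18.2% ± 14.8 of TRBV1-TRBJ2-4 clonotypes without TRAJ30 (SD, n = 7). The difference was 56.2 ± 25.3 points (higher in 7 of 7; exact permutation test, p = 0.0156, the smallest possible, adjusted 0.0625), with 64.3 in experiment 1 and 50.2 in experiment 2. It too missed the threshold after adjustment. The likeness of core sequences was known when the core was picked, so the test of recurrence is not independent support for it. The share was 80.0% in KO and 84.0% in WT with anti-4-1BB, against 73.3% and 50.0% with IgG in experiment 2. In experiment 1 it was 100% in both anti-4-1BB libraries (5 of 5 and 9 of 9 clonotypes) and 33.3% with WT IgG. Libraries with more core cells offer more matches, and this was not corrected. As for length, clonotype 5 counted in both sets of WT with anti-4-1BB in experiment 2. In KO with anti-4-1BB of that experiment, 23 of the 50 clonotypes without TRAJ30 met the core beta pattern. The share of recurring betas without TRAJ30 was 48.0% in that library. Of the 37 core beta amino acid sequences 9 occurred in more than 1 library, and 16 of the 91 nucleotide sequences did.

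Identical nucleotides in both chains were found across libraries for 5 of 117 core pairs of beta and alpha. The pair with aspartate and arginine (gacagg at beta codons 5 and 6) and a leucine alpha had 3 cells in KO and 12 in WT with anti-4-1BB in experiment 2. Another joined 9 cells of KO anti-4-1BB to 1 cell of WT IgG in experiment 2, and the third joined 4 cells of WT anti-4-1BB, those of clonotype 5 above, to 1 cell of KO IgG. The remaining 2 joined experiments: 1 cell of WT anti-4-1BB in experiment 1 with 1 of WT IgG in experiment 2, and 2 cells of WT anti-4-1BB in each experiment. Of 71086 barcodes, 3198 occurred in more than 1 library, and none of these carried the same beta in both. Among core cells 37 had such a barcode, 31 of them in KO anti-4-1BB of experiment 2.

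The core betas were also read in cells that the rule leaves out. Among cells with 1 TRB and no TRA, the beta pattern was carried by 113 of 5185 cells in KO (2.18%) and 67 of 4625 in WT (1.45%) with anti-4-1BB in experiment 2, against 6 of 4118 (0.146%) and 3 of 3832 (0.0783%) with IgG. In experiment 1 it was carried by 1 of 1434 and 1 of 3798 cells with anti-4-1BB (KO, WT), against 0 of 1705, which allows a share of up to 0.176%, and 2 of 3633 with IgG. Of the 193 such cells, 173 had the exact beta nucleotides of a core cell of their own library. Among cells with 2 TRB, 39 of 535 in KO and 23 of 442 in WT with anti-4-1BB in experiment 2 carried the pattern, against 4 of 616 and 2 of 399 with IgG.

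Paired cells with the beta pattern but no TRAJ30 numbered 46, of which 23 were in KO and 20 in WT with anti-4-1BB in experiment 2. Clonotype 5 accounted for 16 of the WT cells. The other 30 cells had 29 different combinations of TRAV and TRAJ, 28 of them as clonotypes of a single cell. In all, 41 of the 46 had the beta nucleotides of a core cell of the same library. Whether the partner alpha of these cells was their own was not tested.

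Core cells had a median of 20.5 TRB UMIs in KO and 17 in WT with anti-4-1BB in experiment 2, against 22 and 19 with IgG, and 19 to 26 in experiment 1. All other paired cells had medians of 10 to 18. With anti-4-1BB in experiment 2, a second alpha chain was read in 0 of 320 core cells of KO and in 7 of 146 of WT. With IgG it was read in 2 of 20 and 0 of 11 (KO, WT). The 320 cells belonged to 50 clonotypes, so they do not bound the share as 320 independent cells would. Over the libraries, 4637 to 14657 cells and 80551 to 445027 receptor UMIs were recorded, and the number of paired cells ran from 2656 to 8871.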

How the data were processed

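Receptors were sequenced with 10x Genomics 5′ single-cell libraries, per the labels' protocols, and the authors deposited 1 filtered contig table per library. Its values are raw counts of UMIs and of reads per contig, as deposited. Cell Ranger 7.1.0, bcl2fastq 2.20.0 and Seurat are named in the submitters' processing notes, with GRCm38; the V(D)J reference is not given in the sources used here. Every contig was marked productive and full length. The 8 gene expression libraries were not analysed here.

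Cells with exactly 1 TRB and 1 or 2 TRA were kept. Members, lists and tests were chosen with earlier results of these data known. Named were, by rule, TRBV1, TRAJ30, TRBJ2-4, the 5 TRAV labels, 10 beta and 5 alpha CDR3 versions with most core clonotypes, the 5 largest core clonotypes, the TRBJ labels of TRBV1 with TRAJ30, the 3 most frequent TRAJ of TRBV1 and the 3 pairs most like TRBV1 with TRAJ30. Rarer TRAV labels and TRAV7N-5 with TRAJ38 were named after their values were seen. Of 166 V and J labels, 165 matched a RefSeq symbol.

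Shares were compared by 2-sided exact permutation over libraries (Python 3.11.15), with Benjamini-Hochberg adjustment over 8 tests. Clonotype counts per segment (10 or more in at least 2 libraries) and per TRBV with main TRAJ pair (5 or more in at least 2) were fitted with edgeR 4.0.16 (quasi-likelihood, 4 group means, no abundance trend, total clonotypes as library size), called at an adjusted p under 0.05. DESeq2 1.42.0 was an alternative. The labels give the experiment of each library, and the permutation tests of core share exchanged labels only within an experiment. Deviations of libraries from group means correlated between -0.131 and 0.402 over 153 segments (6 pairs of groups). The main edgeR fits held no term for experiment, and the replicate block added it. Alternatives changed the UMI minimum (3 per chain), the chains allowed, shared barcodes, the clonotype definition, the filter, the normalization, the unit counted and the replicate block, and left out each library in turn. Depth differed between libraries, so rare receptors are least certain in the smallest.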

Additional observations from a re-analysis of the deposited data

Results flagged for a closer look

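Dixon's 95% critical value was applied to 16 sets of values, which were groups of 4 libraries and within-library differences of the core. In 3 of the 16, all of them groups of 4, 1 library stood apart from the other 3 more than this value allows. Chance flags about 1 in 20 groups of like samples, but the flagged groups mix anti-4-1BB with IgG, and the groups examined overlap. They also hold shares known when the core was picked, so the flags are a description and not a test. Among the KO libraries, the core share of paired cells with anti-4-1BB in experiment 2 was 6.52% (gap 0.965 of the range), and its share of clonotypes 1.41% (0.856 of the range). Among the WT libraries, that with anti-4-1BB in experiment 2 had 3.29% of paired cells (0.954 of the range).

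Cells with a beta chain and no alpha chain, which lie outside the paired cells, carried the core beta pattern above the level of every IgG library in 2 of the 4 anti-4-1BB libraries. The share was 2.18% (interval 1.80% to 2.61%) in KO and 1.45% (1.12% to 1.84%) in WT with anti-4-1BB in experiment 2, against at most 0.146% with IgG. These intervals take cells as independent, which cells of 1 clonotype are not. In experiment 1 it was 0.0697% in KO and 0.0263% in WT with anti-4-1BB. Of the 193 cells, 173 had the exact beta nucleotides of a core cell of their own library, so they are not a separate observation.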

How the results depend on the processing

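The differences in core share kept their direction under 7 alternatives each: 2.21 to 2.37 points of cells for anti-4-1BB minus IgG and 0.772 to 0.898 for KO minus WT, and 0.412 to 0.564 and 0.150 to 0.188 points of clonotypes. With the replicate block alone (labels exchanged within experiments, 36 arrangements), the mean was 2.31 points of cells (exact permutation p = 0.167) for treatment and 0.836 (p = 0.444) for genotype. Leaving out each library gave 1.02 to 3.10 and 0.0371 to 1.14 points of cells, and 0.213 to 0.598 and 0.0287 to 0.218 points of clonotypes. Expanded share, core minus TRBV1 without TRAJ30, was 3.29 to 21 points with each library left out (lowest without KO with anti-4-1BB of experiment 2), 27.1 with clonotypes by amino acids (exact permutation p = 0.0625), and -12.3 in experiment 1 alone; against TRAJ30 without TRBV1 it was 5.33 to 19.6 (lowest without WT with anti-4-1BB of experiment 2), 26.8 and -9.64. The experiments taken alone were examined after the data had been seen. CDR3 length differed by -0.41 to -0.31 residues with each library left out, and by -0.55 and -0.22 in experiments 1 and 2 alone; shared betas differed by 51.6 to 63.3 points, and by 64.3 and 50.2. With 3 and 4 libraries neither experiment alone can pass 0.05 by exact permutation.

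Segments called for treatment numbered 1, against 0 with DESeq2, 2 with TMM factors, 2 with the replicate block and 0 to 2 with each library left out. For genotype they numbered 1, against 0 with DESeq2, 0 with cells counted and 0 to 2 with each library left out. Pairs called for treatment numbered 0, against 6 without a filter, 4 with the replicate block and 0 to 1 with each library left out, and 0 for genotype throughout. The blocked fit called no member: TRBV1 with TRAJ30 had 0.79 there (edgeR adjusted p = 0.460). With each library left out, the pair's treatment difference ran from -0.091 to 1.18, TRAJ30's from -0.031 to 0.35, and the genotype differences of the pair, TRBV1 and TRAJ30 from -0.33 to 1.02, -0.20 to 0.27 and -0.14 to 0.23. The lowest of each came without KO with anti-4-1BB of experiment 2. TRBV1's treatment difference ran from -0.45 to 0.015 (highest without KO with anti-4-1BB of experiment 1) and was 0.18 with cells counted. In experiment 2 it ran from -0.34 to 0.16 (highest without WT with anti-4-1BB) and was 0.46 with cells counted. TRBJ2-4's genotype difference ran from -0.046 (without KO with IgG of experiment 2) to 0.086. The pair in experiment 1 ran from -0.079 (without KO with anti-4-1BB) to 0.26, and was -0.0022 with 3 UMIs per chain. In experiment 2 it ran from 0.72 (without KO with anti-4-1BB) to 1.48. The cause of each was not tested.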
